A study of Mus musculus with 3 samples.

Results

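The cytochrome P450 genes are described here by their 5-methylcytosine (5mC) peaks in mouse cardiomyocytes, as the 99 of 20665 protein-coding RefSeq genes on chromosomes 1 to 19 whose symbol starts with Cyp followed by a digit. The gene set was chosen by symbol, but it was selected on these same peak lists, in which a TAC excess in some of its families was already known. Peak numbers in the gene bodies are therefore given as a description and carry no test. Of the 99 genes, 65 lay in 12 subfamily clusters, which are runs of genes of the same family number and letter with gaps of at most 200 kb, and 34 were single.

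Cytochrome P450 enzymes are haem monooxygenases that insert an oxygen atom into lipids, steroids, vitamins and foreign compounds, mostly with electrons from P450 oxidoreductase. Many of their genes arose by local duplication and still stand in tandem arrays of close paralogs, most of which are expressed mainly in liver, kidney or intestine. In the heart the family is best known for arachidonic acid, which enzymes of the Cyp2c and Cyp2j subfamilies turn into epoxyeicosatrienoic acids and enzymes of the Cyp4a and Cyp4f subfamilies into hydroxylated products.

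Methylated DNA was immunoprecipitated and sequenced (MeDIP-seq) from cardiomyocytes of male C57Bl6/J mice, aged 8 weeks per the labels. One group had a Sham operation and the other had transverse aortic constriction (TAC), which puts the left ventricle under pressure overload, for 1 week. Each group has 1 library, and an Input library without antibody is a further sample that was not analysed here. No allele or drug treatment is named for either group, and the sources used here do not say how many animals gave 1 library. A peak is a stretch with more immunoprecipitated than input DNA, not a methylation level, and the lists hold no expression. The labelled cell type could therefore not be checked here. Marker genes held peaks too, but 5mC peak numbers grow with gene length and do not measure cell identity. They were 27 in Sham and 44 in TAC over 6 cardiomyocyte genes, of which 20 and 31 lay in the long gene Ryr2 alone, 27 and 25 over 4 endothelial genes, 7 and 11 over 4 fibroblast genes, and 6 and 12 over 3 immune genes.

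The Sham library had 12585289 tags with 29.9% in peaks and the TAC library 14658177 with 34.7%, per the file headers. On chromosomes 1 to 19 the lists held 134294 peaks in Sham and 159304 in TAC, a ratio of 1.19 (exact 95% interval 1.18 to 1.19). In protein-coding gene bodies there were 62968 and 67124, a ratio of 1.07 (1.05 to 1.08). These are the levels beside which the values for Cyp genes stand. Every interval covers counting error alone, peaks near each other are not independent, and with 1 library per group no difference has a replicate check.

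Cyp gene bodies held more TAC than Sham peaks, and most of the excess lay in the clustered genes. By peak midpoint, the 99 genes held 132 peaks in Sham and 176 in TAC, a ratio of 1.33 (1.06 to 1.68). The 65 clustered genes held 71 and 110, a ratio of 1.55 (1.14 to 2.12). The 34 single genes held 61 and 66, a ratio of 1.08 (0.752 to 1.56). The intervals of clustered and single genes overlap, and the difference between them was not tested. The interval of all 99 genes holds both levels given above, 1.07 in all protein-coding genes and 1.19 over all peaks. That of the clustered genes holds 1.19 but not 1.07. The TAC list is the longer of the pair. With it reduced by row order to the number of Sham peaks, the ratio was 1.25 (0.907 to 1.74) in clustered Cyp genes, 0.951 in single Cyp genes, 1.11 (0.874 to 1.42) in all 99, and 0.899 in all protein-coding genes, so the intervals for clustered and for all Cyp genes then held 1. Row order partly follows chromosome order, as described below, so this reduction is not by strength alone.

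**Figure D1:**
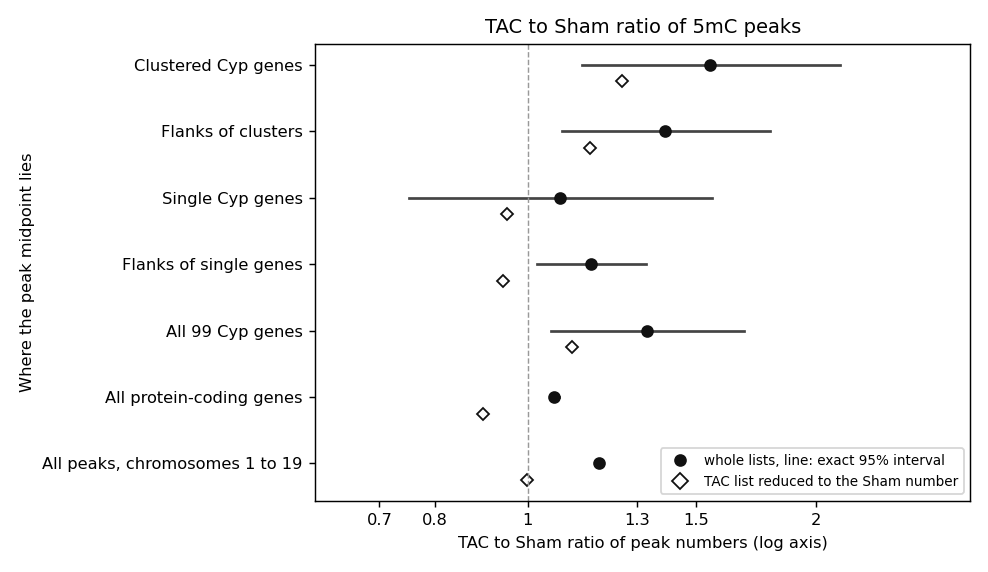
TAC to Sham ratio of 5mC peak numbers (log axis) for clustered and single Cyp genes, the 100 kb on each side of them, all protein-coding genes and all peaks, with 1 library per group; filled points are the whole lists with exact 95% intervals and open diamonds the ratio with the TAC list reduced to the Sham number. Clustered Cyp genes sit at 1.55 and single Cyp genes at 1.08, and each diamond lies to the left of its point.

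The neighbourhood of the clusters also held more TAC peaks. The 100 kb on each side of the clusters held 112 peaks in Sham and 156 in TAC, a ratio of 1.39 (1.09 to 1.79), and the gaps between clustered genes 63 and 88, a ratio of 1.40 (0.999 to 1.96). Beside the single genes there were 430 and 501, a ratio of 1.17 (1.02 to 1.33). The interval of clustered gene bodies holds the flank value. The intervals beside the clusters and beside the single genes hold 1.19, the ratio over all peaks. With the TAC list reduced to the Sham number, the ratio was 1.16 (0.895 to 1.51) beside the clusters and 0.942 (0.820 to 1.08) beside the single genes. The clusters differed in gene density, from 8 protein-coding genes per 1 Mb window in Cyp2j and 10 to 13 in Cyp2c to 20 in Cyp3a and 26 in Cyp2d, beside a median of 16 over all genes. In windows with 6 to 10 genes, 17 clustered Cyp genes held 18 Sham and 37 TAC peaks (2.06, 1.14 to 3.84), beside a ratio of 1.05 over all genes there. In windows with 11 to 20 genes, 18 clustered Cyp genes held 18 and 38 (2.11, 1.18 to 3.93), beside 0.979. In windows with 21 or more genes, 30 clustered Cyp genes held 35 and 35 (1.00, 0.608 to 1.65), beside 0.975. The intervals overlap, and the difference between windows was not tested. These windows were chosen after the data were examined. Among clustered genes, the windows with 6 to 10 genes hold the Cyp2j array and part of Cyp2c. Those with 11 to 20 hold Cyp3a and other Cyp2c genes, among others. Their values thus largely repeat those of the arrays below and are no separate check.

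Sharing between the lists was uneven. Of the Sham peaks in Cyp genes 68.9% (60.3 to 76.7) overlapped a TAC peak by at least 1 bp, against 63.8% in all protein-coding genes. Of the TAC peaks in Cyp genes 52.3% (44.6 to 59.8) overlapped a Sham peak, against 60.2%. This left 41 Sham-only and 84 TAC-only peaks. In clustered genes 26 were Sham-only and 64 TAC-only, a ratio of 2.46 (1.54 to 4.05), and in single genes 15 and 20. Unshared peaks were more numerous in TAC elsewhere too, 1.17 times in all protein-coding genes and 1.54 times over all peaks. The 100 kb on each side of the clusters held 41 unshared Sham peaks and 85 unshared TAC peaks, or 2.07 (1.41 to 3.09). The interval of clustered gene bodies holds this flank value. The flank interval also holds the 1.54 of all peaks, and that of clustered gene bodies holds it only just. Whether the excess of unshared peaks differs between gene bodies and flanks was not tested.

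Per gene the numbers were small. A Sham peak lay in 64 of the 99 Cyp genes (64.6%), against 58.5% of all protein-coding genes, and a TAC peak in 72 (72.7%), against 59.8%. Peaks of both libraries lay in 58 Cyp genes (58.6%), of Sham alone in 6 (6.06%) and of TAC alone in 14 (14.1%), and 21 held none (21.2%). Over all genes these shares were 52.4%, 6.11%, 7.43% and 34.0%. At least 2 times as many TAC as Sham peaks were found in 35 Cyp genes (35.4%), against 15.0% of all genes, of which 26 were among the 65 clustered and 9 among the 34 single ones. At least 2 times as many Sham as TAC peaks were found in 11 (11.1%), against 11.7%. A gene with 1 peak in 1 library and none in the other counts here, and the lists were used in choosing the family, so nothing further is read from these shares. The median was 1 peak per gene in both libraries, for Cyp genes and for all genes alike. The means differed, at 1.34 in Sham and 1.79 in TAC for Cyp genes and 3.10 and 3.30 for all genes. Per 100 kb of gene body, clustered Cyp genes held 3.89 Sham and 6.03 TAC peaks and single Cyp genes 7.06 and 7.64. All protein-coding genes held 6.40 and 6.82 per 100 kb. A difference of 2 or more peaks was rarer, with 15 Cyp genes higher in TAC and 2 higher in Sham, Cyp20a1 and Cyp26b1, while 40 genes differed by a single peak. The shares of all genes with such differences were not counted, so nothing is read from these numbers.

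**Figure D2:**
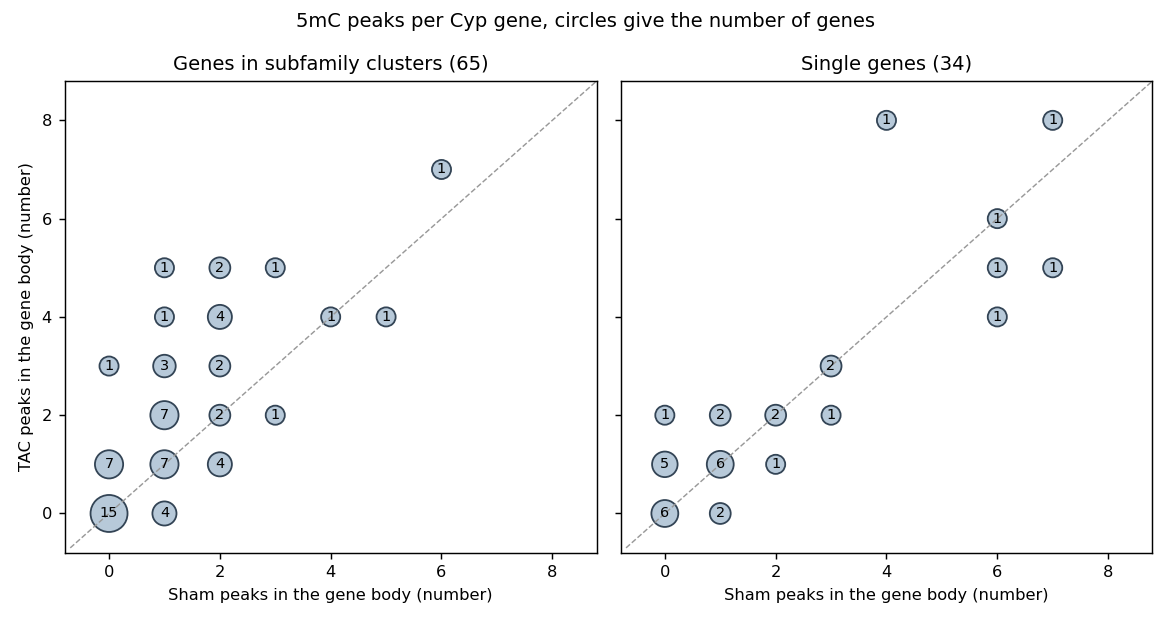
TAC against Sham 5mC peaks per gene body for the 65 clustered (left) and 34 single (right) Cyp genes, with 1 library per group; each circle carries the number of genes at that pair of values and the dashed line marks equal numbers. Most genes sit at 2 or fewer peaks, and clustered genes with 4 or 5 TAC peaks have 1 to 5 in Sham.

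The Cyp2c array had the largest gap among the 12 clusters. It spans chr19:39006940-40187286 (mm10) with 14 genes, whose enzymes oxidise arachidonic acid, retinoids and drugs. Its gene bodies held 9 peaks in Sham and 24 in TAC, a ratio of 2.67 (1.20 to 6.52). With the TAC list reduced to the Sham number it was 2.22 (0.967 to 5.54), which holds 1, and with the first 50% of rows 4.67 (1.302 to 25.33), from 3 and 14 peaks. Of the peaks in the whole lists 3 were Sham-only and 17 TAC-only. The 100 kb on each side held 12 and 16. Cyp2c39 (chr19:39347346-39569568), the longest of the array, held 2 Sham and 5 TAC peaks, and the shorter Cyp2c38 lies within it and shares 1 peak of each library with it. Its shared peak was 626 bp wide in Sham and 1611 bp in TAC. Cyp2c67 (chr19:39608844-39649079) held no Sham peak and 3 TAC peaks. Cyp2c66 held 2 and 4, Cyp2c55 1 and 3, and Cyp2c69 1 and 3. No gene of the array had more Sham than TAC peaks. In the array 8 genes held more TAC peaks, 3 held 1 of each, and Cyp2c68, Cyp2c54 and Cyp2c50 held none. Cyp2c23, an epoxygenase gene that stands apart from the array on the same chromosome, held 2 Sham peaks and 1 TAC peak.

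The Cyp3a array, whose enzymes metabolise steroids and many drugs, followed. It spans chr5:145345149-146114978 with 8 genes and held 9 peaks in Sham and 21 in TAC, a ratio of 2.33 (1.02 to 5.79), with 1 Sham-only and 13 TAC-only. The interval of the whole lists held 1.19, the ratio over all peaks. It held 1 in each of the other 3 row settings, at 1.89 (0.796 to 4.81) with the TAC list reduced, 2.43 (0.957 to 6.93) with the first 90% of rows and 4.0 (0.798 to 38.7) with the first 50%. Beside it lay 7 and 13 peaks. Cyp3a57 (chr5:145345149-145390926) held 1 and 5 peaks and Cyp3a59 (chr5:146079208-146114978) 2 and 5. In Cyp3a57 the single Sham peak was shared, and the 4 other TAC peaks had no Sham counterpart. Cyp3a44 held 2 and 4, Cyp3a11 1 and 3, and Cyp3a25 1 and 2. The near-identical pair Cyp3a41a and Cyp3a41b held 1 of each per gene, and Cyp3a16 none. Cyp3a13, which lies apart from the array, held 1 and 2.

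**Figure D3:**
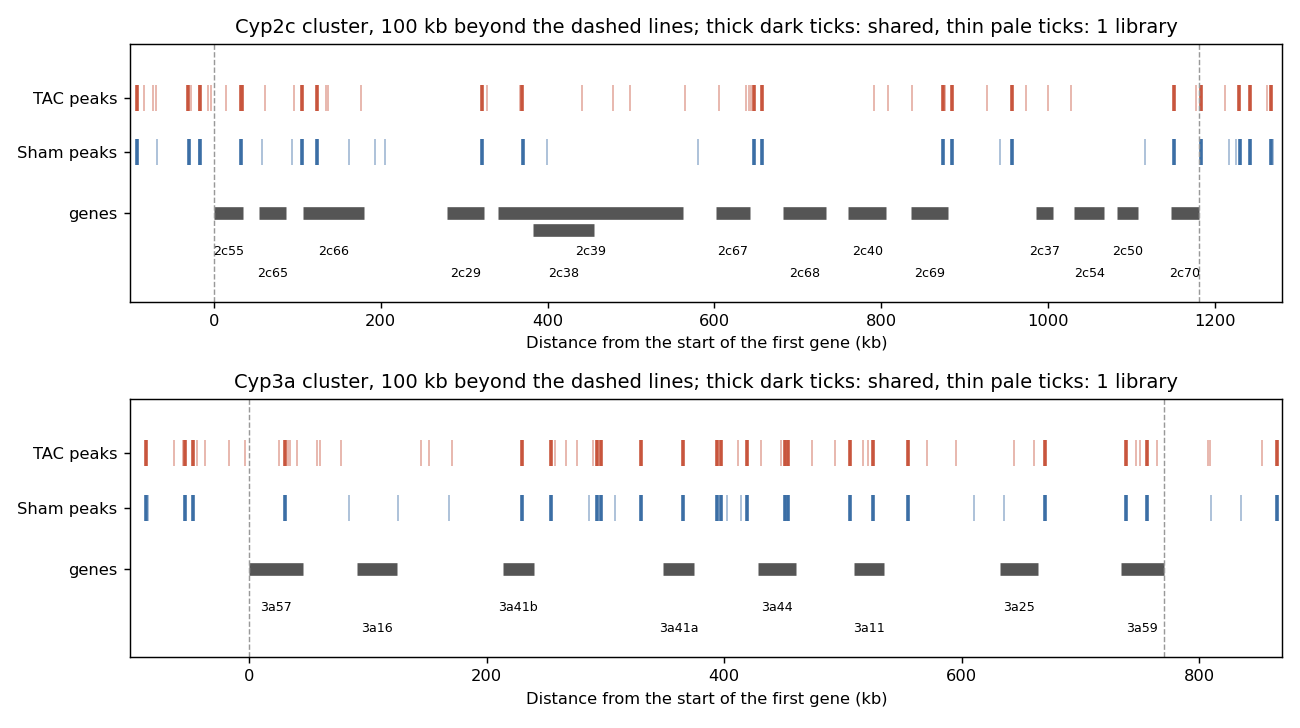
Peak positions along the Cyp2c (top) and Cyp3a (bottom) arrays in kb from the start of the first gene, in 1 TAC and 1 Sham library, with 100 kb of flank beyond the dashed lines and gene bodies as dark bars; thick dark ticks are peaks shared by both libraries and thin pale ticks peaks of 1 library. Pale TAC ticks outnumber pale Sham ticks within genes, 17 to 3 in Cyp2c and 13 to 1 in Cyp3a.

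Reads from such paralogs can align to more than one copy, and the sources used here do not say how multiply aligned reads were handled. Peaks in Cyp2c, Cyp3a, Cyp4a12a and Cyp4a12b, and other close copies are thus uncertain as to the copy they came from. Without the Cyp2c array the ratio over clustered genes was 1.39 (0.989 to 1.95), without the Cyp3a array 1.44 (1.03 to 2.02), and without both 1.23 (0.840 to 1.80), from 53 Sham and 65 TAC peaks.

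The remaining arrays of families 1 and 2 ranged from no difference to a TAC excess with wide intervals. The Cyp2j array (chr4:96042660-96664171, 7 genes), whose enzymes epoxidise arachidonic acid, held 10 and 16 peaks, a ratio of 1.60 (0.683 to 3.94), with 6 Sham-only and 12 TAC-only. Few of its peaks were shared, 4 of the 10 in Sham. Cyp2j11 held 1 and 4, Cyp2j8 3 and 5, and Cyp2j12, Cyp2j9 and Cyp2j5 each 1 and 2. Cyp2j6, with 2 and 1, and Cyp2j13, with 1 and 0, held more Sham peaks. The Cyp2b genes, inducible drug-metabolising enzymes, form 2 clusters on chromosome 7. From Cyp2b10 to Cyp2b9 there were 8 and 10 peaks, with Cyp2b10 at 4 and 4 and Cyp2b13 at 2 and 4. From Cyp2b23 to Cyp2b19 there were 4 and 7, with Cyp2b23 at 2 and 3 and Cyp2b19 at 2 and 4. The 8 Cyp2d genes held 3 and 3, and 4 of them none. The Cyp2a cluster held 0 and 1, and Cyp1a 3 and 3.

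**Figure D4:**
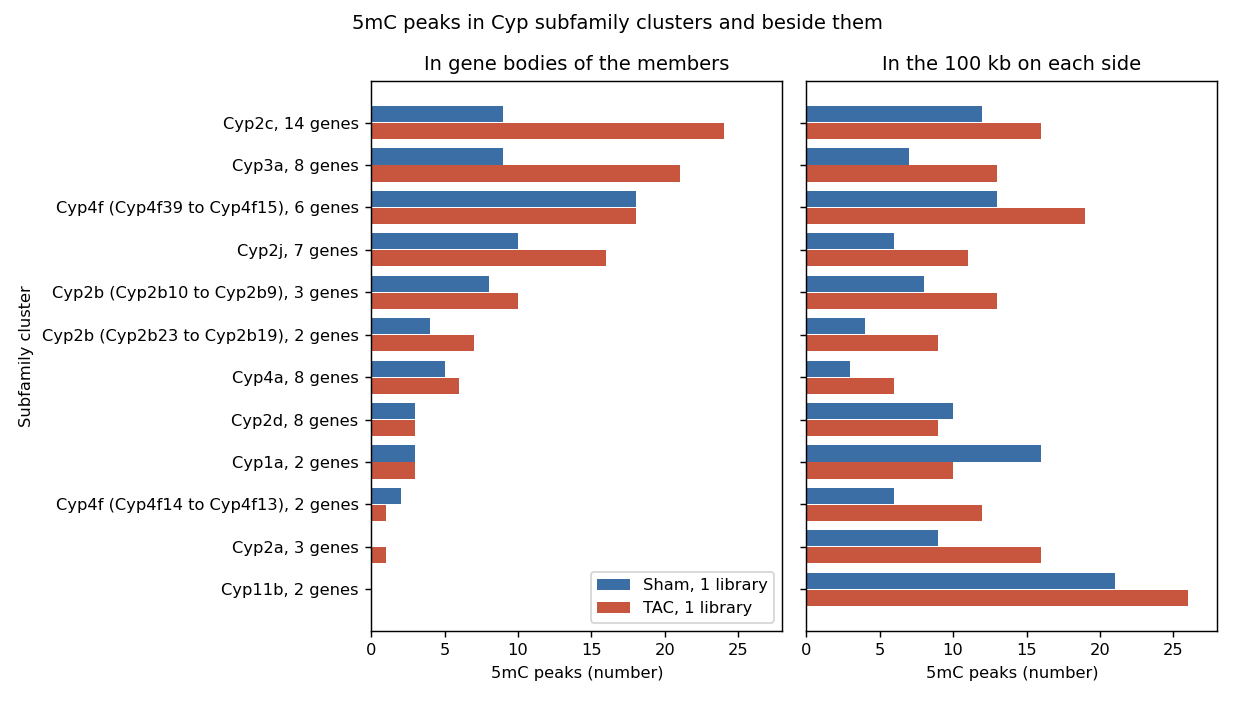
Number of 5mC peaks in the gene bodies of the 12 Cyp subfamily clusters (left) and in the 100 kb on each side (right), as bars for 1 Sham and 1 TAC library. TAC bars exceed Sham bars most in Cyp2c (9 and 24) and Cyp3a (9 and 21), the Cyp4f39 to Cyp4f15 cluster has 18 of each, and Cyp11b has none in its gene bodies.

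Family 4 enzymes hydroxylate fatty acids and eicosanoids at or near the end of the chain. Its 20 genes held 29 peaks in Sham and 29 in TAC, a ratio of 1.00 (0.577 to 1.73), with 11 peaks of each library unshared. Equal totals did not mean the same peaks. In the cluster from Cyp4f39 to Cyp4f15 (chr17:32452697-32703352) both libraries held 18 peaks, 7 of them unshared in each. Cyp4f39 held 6 and 7, Cyp4f17 5 and 4, and Cyp4f15 2 and 3. One TAC-only peak in Cyp4f39 was 1931 bp wide (chr17:32475385-32477315). Cyp4f14 and Cyp4f13, which begin just over 200 kb beyond Cyp4f15 and so form a cluster of their own, held 2 Sham peaks and 1 TAC peak. The Cyp4a cluster of 8 genes held 5 and 6, Cyp4v3 held 2 and 2, and Cyp4b1 0 and 1. The 56 genes of families 1 to 3 outside the Ahr target and vitamin D groups below held 54 and 96 peaks, a ratio of 1.78 (1.26 to 2.53), with 18 Sham-only and 59 TAC-only. The interval of family 4 overlaps theirs, and the difference was not tested.

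The Ahr target genes Cyp1a1, Cyp1a2 and Cyp1b1 are induced by the aryl hydrocarbon receptor. Cyp1a1 held 3 Sham and 2 TAC peaks, and Cyp1a2 and Cyp1b1 each 0 and 1. Cyp1a1 is annotated from 57687928 to 57703824 on chromosome 9, while its promoter entry places a start at 57697613. Both shared peaks, in Sham at chr9:57689126-57689928 and chr9:57693180-57693807, lie before that start, and the Sham-only peak (chr9:57700436-57700936) lies after it.

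Steroid synthesis genes differed little. Cyp11a1, which cleaves the cholesterol side chain, held 3 and 3 peaks, all shared. Cyp19a1, the aromatase gene, held 6 and 6, with 4 shared and 2 unshared in each. Cyp17a1 held 0 and 1, and Cyp11b1, Cyp11b2 (aldosterone synthase) and Cyp21a1 held none, although the 100 kb on each side of the Cyp11b pair held 21 Sham and 26 TAC peaks.

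Among bile acid and oxysterol genes, Cyp7b1, the oxysterol hydroxylase gene (chr3:18071944-18243890), held 4 Sham and 8 TAC peaks. All 4 Sham peaks were shared and 4 TAC peaks were not, and its flanks held 3 and 9. This was the largest gap among single Cyp genes. Cyp39a1 held 7 and 8, and Cyp46a1, the cholesterol 24-hydroxylase gene, 6 and 5. Cyp27a1 held 1 and 2, Cyp8b1 1 and 0, and Cyp7a1, which starts bile acid synthesis, none. Over these 6 genes there were 19 and 23 peaks.

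The retinoic acid hydroxylase genes went the other way. Cyp26b1 (chr6:84571414-84593908) held 6 peaks in Sham and 4 in TAC, with 2 Sham-only and no TAC-only peak. Cyp26c1 (chr19:37685112-37693320) held 3 and 2, with 1 Sham-only peak of 1713 bp that begins 55 bp after its start. Cyp26a1 held none. Together the 3 genes held 9 and 6, a ratio of 0.667 (0.195 to 2.10), an interval that holds 1 and the ratio of all Cyp genes. Of the 4 shared pairs of Cyp26b1, 2 were wider in Sham (1467 and 501 bp, and 757 and 630 bp), 1 was wider in TAC (1007 and 1091 bp) and 1 had the same width.

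Cyp20a1, a P450 gene outside the other role groups, held 7 and 5, again with 2 Sham-only and no TAC-only peak. Of the vitamin D genes, Cyp24a1 (24-hydroxylase) held 0 and 1, Cyp2r1 (25-hydroxylase) 1 and 1, and Cyp27b1 none. Cyp51, the lanosterol demethylase gene, and Cyp2e1 each held 1 and 1, Cyp2s1 2 and 2, Cyp2f2 3 and 3, Cyp2ab1 0 and 2, and Cyp2u1 none. The single genes not named so far (Cyp2a4, Cyp2g1, Cyp2t4, Cyp2w1, Cyp4f18 and Cyp4x1) held at most 1 peak of each library.

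Rows of the deposited lists give a rough order of strength. The first 10% of rows in the whole lists had a median width of 958 bp in Sham and 891.5 bp in TAC, against 501 bp in the last 10% of both. Row positions are read within a list only, since the lists differ in length. In stretches of the lists the rows run in chromosome order. In the TAC list, for example, Cyp peaks on chromosomes 1, 4, 7, 9 and 17 stood at 82.9%, 84.1%, 84.9%, 85.5% and 87.6%. A cut by row number can fall within such a stretch and then keeps or drops peaks by chromosome. In the Sham list the 71 peaks of clustered Cyp genes had a median row position of 61.1%, where all peaks have 49.8%, with 3 in the first and 14 in the last 10% of rows. In the TAC list the 110 peaks of clustered genes had a median of 45.6%, where all peaks have 49.6%. Single Cyp genes had 46.9% in Sham and 50.5% in TAC. With the first 50% of rows of each list, clustered Cyp genes held 27 peaks in Sham and 62 in TAC, a ratio of 2.30 (1.44 to 3.75), and single Cyp genes 32 and 33.

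**Figure D5:**
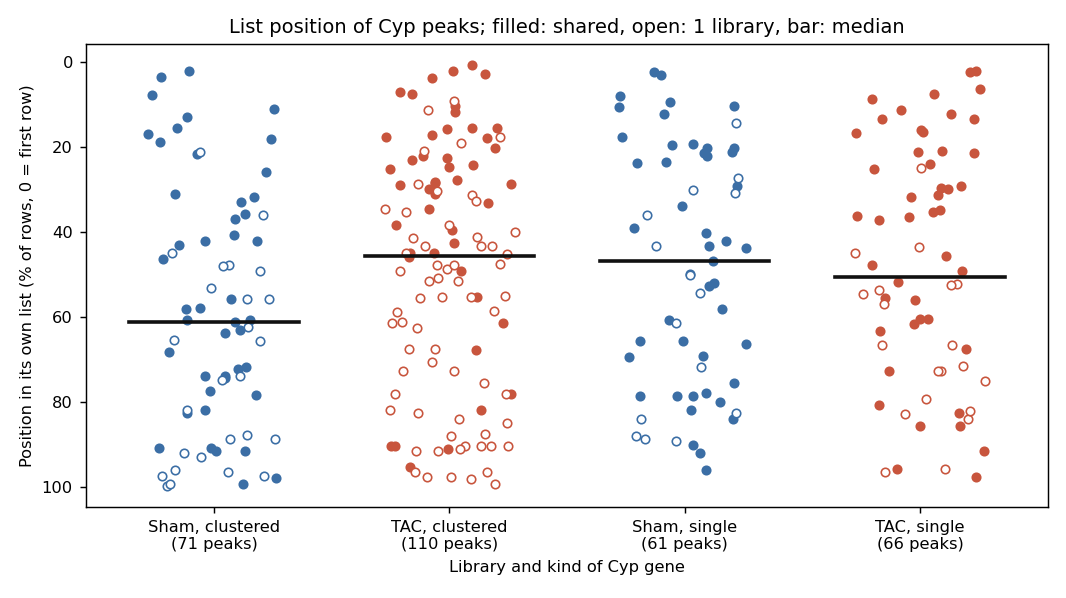
Position of each 5mC peak of Cyp genes in its own list (percent of rows, 0 is the first row) for clustered and single genes in 1 Sham and 1 TAC library; filled points are shared, open points belong to 1 library, points are spread sideways to be seen, and bars are medians. Bars lie at 61.1% for clustered Sham peaks and 45.6% for clustered TAC peaks, and open points are denser in the lower rows of TAC.

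The Cyp peaks nearest the top of either list were shared ones, as were 98.4% of all peaks in the first 10% of rows of each list. One TAC-only peak, in Cyp4f39, stood at 9.38% of the TAC list. In Cyp2b19 a peak of 2120 bp in Sham (chr7:26768701-26770820, row position 2.11% of the Sham list) met one of 2204 bp in TAC (chr7:26768768-26770971, 0.817% of the TAC list). Width differed in both directions. In Cyp46a1 one shared peak was 948 bp wide in Sham and 2198 bp in TAC, and another 1103 bp in Sham and 941 bp in TAC. In Cyp4f16 the shared peak was 757 bp in Sham and 1908 bp in TAC. Of 90 shared Sham peaks in Cyp genes that met a single TAC peak, 32 were wider in TAC, 28 wider in Sham and 30 the same. These differences lie within peaks that the counts treat as equal. Exons are not part of the annotation used, so whether a peak is exonic or intronic was not analysed here.

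Peaks at gene starts were few. A window of 1000 bp on each side of the start, or of both annotated ends for genes without a promoter entry, held a Sham peak in 14 of the 99 Cyp genes (14.1%), against 16.1% of all genes, and a TAC peak in 15 (15.2%), against 17.2%. Both libraries had one at 5 Cyp genes (5.05%), namely Cyp2a4, Cyp2f2, Cyp2c66 and, by annotated ends, Cyp4a10 and Cyp4a31. Sham alone had one at 9 (9.09%) and TAC alone at 10 (10.1%). For genes counted by annotated ends, which end is the start is not known here. Over all genes 2227 had both (10.8%), 1093 Sham alone (5.29%) and 1327 TAC alone (6.42%). With Sham alone were Cyp1a2, Cyp2j8, Cyp2s1, Cyp3a16, Cyp4f18, Cyp8b1, Cyp19a1, Cyp26b1 and Cyp26c1. A gene with several starts counts if any of them has a peak. The Cyp19a1 peak lies by an internal start at 54193743, while its starts at 54268164 and 54228914 had none. With TAC alone were Cyp2ab1, Cyp2c67, Cyp2d9, Cyp2d10, Cyp2j12, Cyp4a30b, Cyp4f15, Cyp4f40 and, by annotated ends, Cyp17a1 and Cyp39a1. Of these peaks that of Cyp4a30b was shared but reached the window in TAC only.

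Cyp promoters are poor in CpG, the dinucleotide that carries most 5mC. RefSeq promoter sequences (GRCm38.p6, the assembly that mm10 names) were matched for 77 of the 99 genes, with 87 starts. In the 250 bases before the start they had a median of 2 CpG and 49.2% GC, beside 10 CpG and 56.0% over all 20085 starts. At least 15 CpG were found in 7 of 87 (8.05%), beside 37.8% of all starts. These 7 were single genes, namely Cyp46a1 with 23, Cyp26a1 with 20, Cyp51 with 20, Cyp4v3 with 17, Cyp2r1 with 16, Cyp20a1 with 15 and Cyp2s1 with 15. The letters GCGTG, the core bound by the aryl hydrocarbon receptor, searched on both strands, were in 17 of 87 (19.5%) and in 34.4% of all starts. These letters hold a CG themselves, so the 2 shares are not alike in CpG content. Over all starts they were in 4.14% of those with 0 to 2 CpG, 15.9% with 3 to 5 and 57.9% with 15 or more. A difference at equal CpG content was not tested. A match is a description, and no match says only that these letters are not in this window. A peak touched these 250 bases at 2 of 87 starts (2.30%) in Sham and at 2 in TAC, beside 3.05% and 3.20% of all starts.

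The 4 promoters touched by a peak are shown because a peak reaches into these 250 bases, in each case only at an edge. Those of Cyp26b1 and Cyp2s1 are shown because they pair a Sham-only peak beside the start with more CpG. Each is the 250 bases before the start, 5′ to 3′ on the gene's strand, with CG in capitals. They are Cyp2f2 (chr7:27119705-27119954, plus strand), Cyp4f18 (chr8:72009627-72009876, minus), Cyp1a2 (chr9:57683656-57683905, minus), Cyp2ab1 (chr16:20325405-20325654, minus), Cyp26b1 (chr6:84593811-84594060, minus) and Cyp2s1 (chr7:25816526-25816775, minus).
Cyp2f2: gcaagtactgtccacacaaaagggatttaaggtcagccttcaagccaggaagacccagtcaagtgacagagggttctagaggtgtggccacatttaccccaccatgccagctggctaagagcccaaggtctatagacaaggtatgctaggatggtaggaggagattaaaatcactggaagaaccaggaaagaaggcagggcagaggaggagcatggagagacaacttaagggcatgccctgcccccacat
Cyp4f18: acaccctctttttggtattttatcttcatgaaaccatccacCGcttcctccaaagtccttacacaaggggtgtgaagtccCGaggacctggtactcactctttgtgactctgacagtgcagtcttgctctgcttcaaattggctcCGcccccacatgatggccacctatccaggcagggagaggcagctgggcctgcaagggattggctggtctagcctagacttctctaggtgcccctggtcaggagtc
Cyp1a2: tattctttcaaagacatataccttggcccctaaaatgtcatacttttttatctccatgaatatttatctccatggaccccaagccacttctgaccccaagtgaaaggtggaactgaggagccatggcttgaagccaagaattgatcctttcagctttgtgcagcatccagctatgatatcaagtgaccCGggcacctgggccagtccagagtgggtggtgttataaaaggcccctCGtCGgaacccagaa
Cyp2ab1: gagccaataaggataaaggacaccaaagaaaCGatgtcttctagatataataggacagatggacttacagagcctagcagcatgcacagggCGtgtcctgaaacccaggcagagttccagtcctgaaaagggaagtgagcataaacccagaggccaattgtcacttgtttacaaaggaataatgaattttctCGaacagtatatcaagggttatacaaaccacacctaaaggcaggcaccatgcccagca
Cyp26b1: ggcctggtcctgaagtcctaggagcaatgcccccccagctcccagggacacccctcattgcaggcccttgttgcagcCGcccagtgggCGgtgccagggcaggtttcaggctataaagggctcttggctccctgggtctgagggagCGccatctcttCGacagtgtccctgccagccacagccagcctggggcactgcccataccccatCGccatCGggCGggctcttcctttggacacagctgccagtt
Cyp2s1: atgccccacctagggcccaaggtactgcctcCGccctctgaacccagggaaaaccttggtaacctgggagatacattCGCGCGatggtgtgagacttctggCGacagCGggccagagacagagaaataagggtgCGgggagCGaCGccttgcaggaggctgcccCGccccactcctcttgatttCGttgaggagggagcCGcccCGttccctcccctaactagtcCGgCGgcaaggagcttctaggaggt

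In Cyp2f2, whose sequence has no CG, the Sham peak begins 14 bp after the start and the TAC peak 34 bp before it, so that only the TAC peak touches the promoter although the peaks overlap. In Cyp4f18 the Sham-only peak reaches 11 bp before the start of a sequence with 3 CG. In Cyp1a2 the Sham-only peak covers 223 to 723 bp before the start, at the outer end of the printed bases, while the 3 CG stand towards the start. In Cyp2ab1 the TAC-only peak reaches 38 bp before the start, and its sequence has 3 CG and 1 match to GCGTG. In Cyp26b1, with 7 CG, the Sham-only peak lies 170 to 670 bp after the start. In Cyp2s1, with 15 CG, the Sham-only peak lies 711 to 1211 bp before the start, outside the printed bases. None of the 4 touched promoters is among the 7 with at least 15 CpG. Over all genes, 162 of 904 touched starts had at least 15 CpG. With 4 touched promoters, nothing is read from this.

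Genes that work with the P450 enzymes were counted in the same way. A list of 25, from electron donors to nuclear receptors, held 131 peaks in Sham and 143 in TAC, a ratio of 1.09 (0.855 to 1.39). Of these 13 held more TAC peaks, 7 more Sham peaks and 4 the same number, and 1 held none, beside 40, 17, 21 and 21 of the 99 Cyp genes and 25.9%, 22.01%, 18.1% and 34.0% of all genes. At least 2 times as many TAC as Sham peaks were in 7 of the 25, beside 15.0% of all genes, and the reverse in 2, beside 11.7%. Por, the electron donor of microsomal P450 enzymes, held 8 and 11. Of the Ahr pathway, Ahr held 4 and 2, its partner Arnt 0 and 3, and its repressor Ahrr 2 and 7. Ephx2, the soluble epoxide hydrolase that removes epoxyeicosatrienoic acids, held 1 and 3. Of the nuclear receptors, Rxra held 18 and 13, Nr1h4, the bile acid receptor, 16 and 14, and Ppara, which drives Cyp4a genes, 3 and 5. The prostanoid synthases Tbxas1 and Ptgis, P450 enzymes by structure without a Cyp symbol, held 34 and 31, and 9 and 9.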

How the data were processed

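MeDIP-seq peak lists of 1 Sham and 1 TAC library were used. The submitters' processing notes name mm10, HOMER 4.5, Picard and BWA 0.7.4-r385. The authors called peaks per library against input with a peak size of 500 bp, at least 4-fold over input and a p of 0.0001, with tag thresholds of 11 (Sham) and 12 (TAC), per the file headers. The deposited score is 1 for every peak and ranks nothing, so peak starts and ends and the row order were used.

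Peaks were assigned to RefSeq gene bodies (GRCm38.p6) by midpoint, each counted once, with Python 3.11.15, pandas 2.3.3 and scipy 1.17.1. The flanks are 100 kb on each side, without Cyp gene bodies. Ratio intervals come from the exact (Clopper-Pearson) 95% interval of the TAC share. The counting was tested on simulated data, where the peaks of 300 of 300 made-up genes were recovered. No p-value between groups can be given with 1 library per group. Depth was 12585289 and 14658177 tags.

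Members, lists and tests were chosen with earlier results of these data known. Named genes are those with at least 3 peaks in either library, at least 2 in 1 library alone, or a peak at a start, and 28 fixed by name. Others, in small arrays or with wide peaks, were named after their values were seen. Alternatives varied the assignment, gene extent, sharing rule, rows used, flank width and cluster gap.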

Additional observations from a re-analysis of the deposited data

How the results depend on the processing

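The TAC to Sham ratio in Cyp gene bodies stayed above 1 in 6 of 6 alternatives (1.11 to 1.61), and that in clustered genes in 11 of 11 (1.23 to 2.30), of which the 3 that leave out Cyp2c, Cyp3a or both were chosen after seeing the data. The TAC list is longer, with 1.19 over all peaks, so a ratio above 1 is no check by itself. The lowest values were 1.11 (0.874 to 1.42) with the TAC list reduced, where all peaks had 0.998, and 1.23 (0.840 to 1.80) without Cyp2c and Cyp3a. Both intervals hold 1. Row order partly follows chromosome order, so settings that cut the lists by rows do not select by strength alone. With the first 50% of rows, 34 Cyp genes held a Sham peak, there were 59 Sham and 95 TAC peaks, the ratio in clustered genes was 2.30, and 40.0% of TAC peaks were shared. With the TAC list reduced by row order to the Sham number, the ratio in the flanks turned to 0.973, which follows from fewer TAC peaks. Ratios of single subfamilies varied widely, within the counting intervals of their small numbers: Cyp2c 1.85 to 4.67, Cyp3a 1.704 to 4.0, Cyp2j 1.20 to 1.82, Cyp2b 1.25 to 1.83, and, on both sides of 1, Cyp4a 0.60 to 3.0, Cyp2d 0.667 to 2.0 and Cyp4f 0.90 to 1.67. The lists hold no signal per peak, 52 of the 99 Cyp genes have at most 1 peak in each library, and reads of close paralogs cannot be told apart here.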
